A study of Rattus norvegicus with 6 samples.

Results

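Transcript levels of 8 genes that encode signalling enzymes of the developing spermatid and the sperm were examined in whole rat testis. They are 4 testis-specific serine kinases (Tssk2, Tssk3, Tssk4 and Tssk6), the calmodulin-dependent kinase Camk4, the calcineurin subunits Ppp3cc and Ppp3r2, and the protein phosphatase catalytic subunit Ppp1cc. The members were found by their gene symbol. Each of the 8 symbols labelled a single gene among the 35291 genes of the expression table, and 8 of 8 reached the minimum level for testing, a mean of at least 0.5 FPKM over all rats. FPKM divides the fragments of a gene by transcript length and library size, so that levels of different genes can be set side by side.

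The table covers 6 testes of Sprague-Dawley rats. The 3 diabetic (DM) rats had been kept on a high-fat diet and injected intraperitoneally with a single dose of streptozotocin (STZ, 35 mg/kg), a toxin of the insulin-producing cells of the pancreas. The 3 non-diabetic (ND) rats, labelled as normal, had received citrate buffer, and RNA was extracted 8 weeks after the injection in both groups. The rats are described as adult males, with no age given. The diet of the ND rats is not stated in the methods, so diet and diabetes cannot be told apart here. The labels number the samples as replicates without saying that each is a different animal. Each is called a rat here, and the p-values measure the spread between these samples. In RNA of whole testis, fewer cells of a type and less RNA per cell cannot be told apart.

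Spermatids stop transcribing once protamines compact their chromatin, so that later steps of sperm formation depend on stored mRNA and on protein phosphorylation. The TSSK kinases appear after meiosis and act in the shaping of the sperm head and tail. Calmodulin carries the calcium signal to CaMKIV, a nuclear kinase of spermatids, and to calcineurin, a phosphatase that in sperm is assembled from the catalytic subunit PPP3CC and the regulatory subunit PPP3R2. The gamma form of protein phosphatase 1, encoded by Ppp1cc, holds sperm motility in check until its activity declines during passage through the epididymis.

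All 8 genes were abundant. Over the 6 rats, Ppp1cc was the highest at 306 ± 16.5 FPKM (SD, n = 6), followed by Ppp3r2 at 236 ± 18.7 FPKM. Tssk2 at 147 ± 9.64 FPKM, Tssk6 at 147 ± 14.2 FPKM and Tssk3 at 135 ± 5.45 FPKM lay close together. Camk4 at 118 ± 11.1 FPKM, Ppp3cc at 82.7 ± 6.01 FPKM and Tssk4 at 57.7 ± 7.64 FPKM completed the order. Against the mean levels of the 20338 genes tested, Ppp1cc was at the 99.2nd percentile and Tssk4 at the 92.3rd. Each neighbouring pair in this order was compared rat by rat on the log2 scale with an exact two-sided sign-flip test, for which 0.0313 is the smallest p-value with n = 6. In 5 of the 7 pairs the higher gene was above the lower in 6 of 6 rats (exact p = 0.0313, Benjamini-Hochberg 0.0438 over 7 pairs). Tssk2 was above Tssk6 in 3 of 6 rats (exact p = 0.844), and Tssk6 above Tssk3 in 5 of 6 rats (exact p = 0.0625, Benjamini-Hochberg 0.0729), so neither of these pairs passed the test. The order was taken from the same values that were compared.

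**Figure D1:**
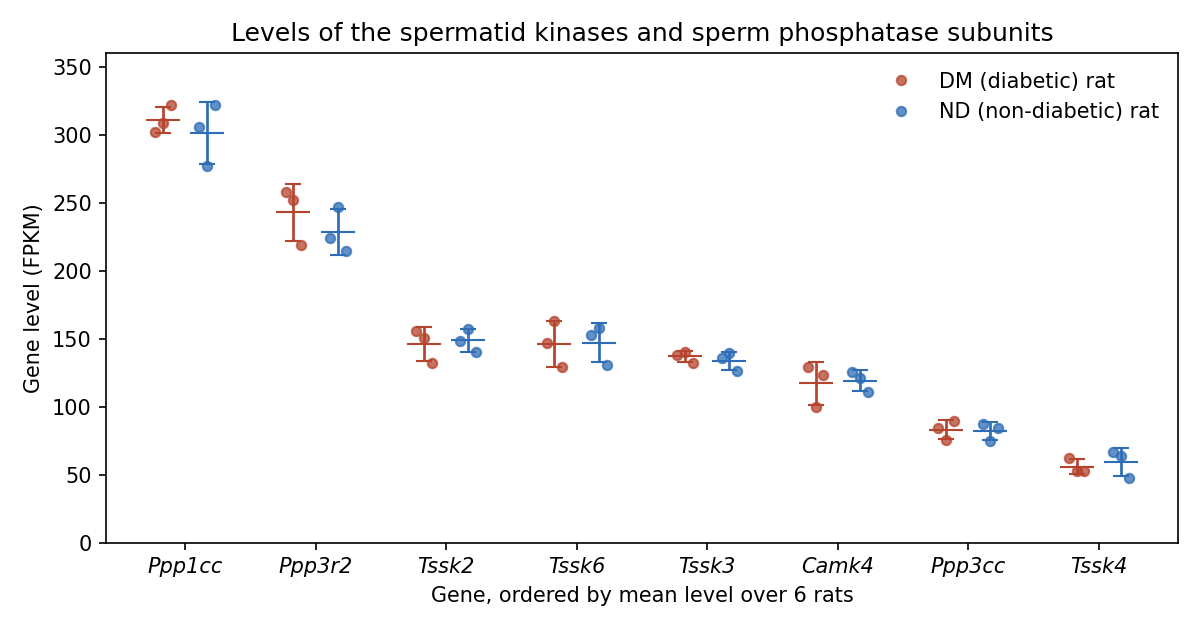
Level of each gene in FPKM (linear axis from 0) in the 3 diabetic (DM) and 3 non-diabetic (ND) rats. Points are single rats, and bars give the mean and SD of the group. The groups overlapped for all 8 genes, from Ppp1cc at 277 to 322 FPKM down to Tssk4 at 47.7 to 66.5 FPKM.

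The comparison of DM with ND rats asked whether diabetes altered these transcripts. None of the 8 members passed the test. With limma on log2(FPKM + 0.1), 0 of 8 had an adjusted p-value below 0.05, against 7 of the 20338 genes tested (0.0344%). At an unadjusted p-value below 0.05 there were also 0 of 8, against 1517 genes (7.46%). The study's criterion is a log2 fold change of 1 or more at a p below 0.05, without saying whether that p was adjusted. Read as an unadjusted limma p with changes in either direction, it was met by 0 of 8 members and by 253 genes (1.24%). The values of the groups overlapped for all 8 members, whereas they did not overlap for 2640 genes (13.0%). The log2 fold changes (DM minus ND) of the members lay between -0.076 for Tssk4 and 0.088 for Ppp3r2, with 4 positive and 4 negative and a median of 0.0023, beside a median of -0.021 over all genes tested. Their adjusted p-values from limma were between 0.888 and 0.994.

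The precision differed between the members. The 95% interval was narrowest for Tssk3, from -0.10 to 0.18 on the log2 scale, which is a change of -6.83% to 13.0% in DM rats. It was widest for Tssk4, from -0.40 to 0.25, or -24.2% to 18.7%. A log2 change of 1 in either direction lay outside the interval of each of the 8 genes. Smaller differences within those intervals were not excluded with 3 rats against 3.

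**Figure D2:**
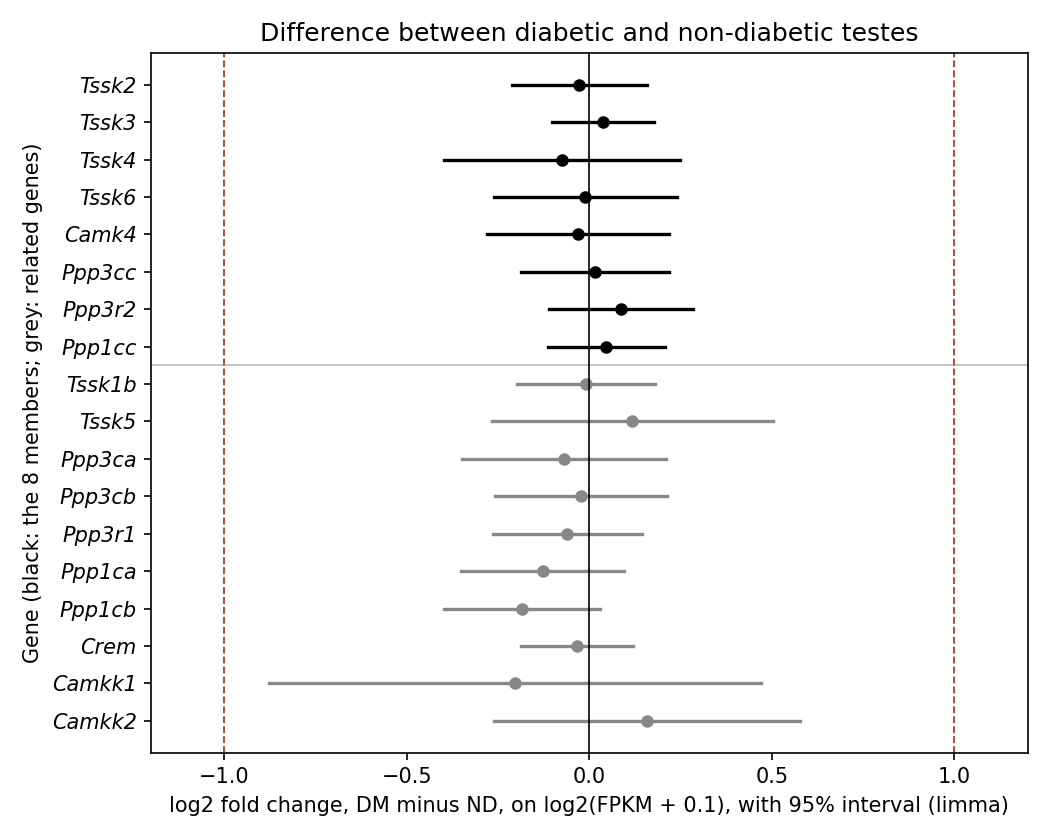
Log2 fold change (DM minus ND, on log2(FPKM + 0.1)) with its 95% interval from limma, for the 8 members in black and for 10 related genes in grey, and dashed lines at a log2 fold change of -1 and 1. The intervals of all 8 members include 0 and stay between -0.40 and 0.28, and Camkk1, at 0.604 FPKM, has the widest interval shown.

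Among the kinases, Tssk2 was at 155, 151 and 132 FPKM in the DM rats and at 149, 157 and 140 FPKM in the ND rats. The third rat of each group was the lowest, and the groups overlapped. The means were 146 ± 12.4 and 149 ± 8.60 FPKM (SD, n = 3 each), which differed by -0.027 on the log2 scale (SE 0.079, limma adjusted p = 0.970). Tssk3 was at 138, 140 and 132 FPKM in the DM rats and at 136, 139 and 126 FPKM in the ND rats. It varied least of the 8 genes, with 1.12-fold between the lowest and the highest rat, and its log2 fold change was 0.037 (limma adjusted p = 0.935). Tssk6, whose product is needed for the packing of sperm chromatin, was at 147, 163 and 129 FPKM in the DM rats and at 152, 158 and 131 FPKM in the ND rats. Its log2 fold change was -0.011 (95% interval -0.26 to 0.24, limma adjusted p = 0.994). Tssk4 was at 62.4, 52.5 and 52.9 FPKM in the DM rats and at 66.5, 64.02 and 47.7 FPKM in the ND rats. It spread the most, 1.40-fold from the lowest to the highest rat, and both ends of that range were ND rats. For Tssk4 the groups differed by -0.076 on the log2 scale (SE 0.14, limma adjusted p = 0.945). Without the third ND rat the groups of Tssk4 no longer overlapped, at a log2 fold change of -0.23 (limma adjusted p = 0.675). Groups separate more easily with fewer rats, and the share of all genes without overlap was not taken for that fit.

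The remaining kinases of the family were measured as well. Tssk1b, a paralog of Tssk2 and its neighbour on chromosome 11 of the RefSeq assembly GRCr8, was at 155, 159 and 135 FPKM in the DM rats and at 147, 161 and 144 FPKM in the ND rats. The ratio of Tssk2 to Tssk1b was between 0.945 and 1.01 in the 6 rats, with a mean of 0.981 ± 0.0228 (SD, n = 6), although Tssk2 itself spread 1.19-fold. Whether fragments were shared between these paralogs is not known from the table. Tssk5 was far lower, at 12.5 ± 1.75 FPKM in the DM and 11.6 ± 2.18 FPKM in the ND rats (SD, n = 3 each). Of the summed FPKM of the 6 kinases, Tssk1b made up 23.1%, Tssk2 22.7%, Tssk6 22.6%, Tssk3 20.9%, Tssk4 8.87% and Tssk5 1.85% as means of the 6 rats. None of the 6 shares passed the test between the groups (exact permutation test, p between 0.4 and 1 for n = 3 against 3, for which 0.1 is the smallest). The sum of the 6 kinases was 672, 678 and 592 FPKM in the DM rats and 663, 692 and 597 FPKM in the ND rats, so that the third rat of each group was again the lowest. The TSSK substrate gene Tsks was at 308 ± 30.3 and 321 ± 21.6 FPKM, and Tsacc, which encodes a co-chaperone that activates TSSK6, was at 309 ± 23.4 and 311 ± 37.9 FPKM in DM and ND rats (SD, n = 3 each). Of the 4 genes of the TSSK list outside the members, 0 had an unadjusted p-value below 0.05 in limma, and their median log2 fold change was -0.0091.

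Since Tssk2 and Tssk1b ran side by side in every rat, the 250 bases before their annotated starts are shown for comparison (RefSeq, GRCr8, minus strand, chr11:96592220-96592469 and chr11:96596640-96596889), with CG dinucleotides in capitals.
Tssk2: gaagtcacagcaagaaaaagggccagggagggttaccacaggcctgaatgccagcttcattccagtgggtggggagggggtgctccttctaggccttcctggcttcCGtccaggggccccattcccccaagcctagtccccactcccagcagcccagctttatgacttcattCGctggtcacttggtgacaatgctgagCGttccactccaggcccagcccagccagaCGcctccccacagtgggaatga
Tssk1b: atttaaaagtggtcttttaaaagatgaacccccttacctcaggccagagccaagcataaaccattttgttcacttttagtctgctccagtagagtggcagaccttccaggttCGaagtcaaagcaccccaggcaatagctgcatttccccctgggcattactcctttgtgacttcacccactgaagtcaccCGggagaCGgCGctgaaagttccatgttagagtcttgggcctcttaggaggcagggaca
Each of these windows holds 4 CG dinucleotides, where the median over 33469 such windows of the genome is 5. Neither contains the cAMP response element TGACGTCA, the binding sequence of the CREM and CREB factors, on either strand, and 1.59% of all windows do. The letters TGACG, a part of that element, were found on either strand in 1 of the 7 members with a window, Tssk6, against 18.2% of all windows, and TATAAA in 0 of 7 against 12.9%. CCAAT was found in 2 of 7 (34.0% of all windows) and GGGCGG in 3 of 7 (30.5%). Ppp3cc had no window in the table.

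Camk4 was at 129, 99.4 and 123 FPKM in the DM rats and at 126, 121 and 111 FPKM in the ND rats. The second DM rat was the lowest of the 6 and the first DM rat the highest, so the spread of the DM rats enclosed that of the ND rats. The means were 117 ± 15.6 and 119 ± 7.77 FPKM (SD, n = 3 each), with a log2 fold change of -0.031 (95% interval -0.28 to 0.22, limma adjusted p = 0.974). The gene also gives rise to calspermin, a testis transcript from an internal start that encodes a calmodulin-binding protein without kinase activity, and the gene total does not separate these products. Its upstream kinases were scarce. Camkk1 was at 0.558 ± 0.112 FPKM in the DM and 0.651 ± 0.0614 FPKM in the ND rats, and Camkk2 at 2.03 ± 0.0753 and 1.83 ± 0.340 FPKM (SD, n = 3 each). Crem, the gene of a transcription factor of spermatids, was at 34.97 ± 0.677 and 35.9 ± 2.17 FPKM (SD, n = 3 each). Of the 15 genes tested from the calmodulin kinase list, 0 had an unadjusted p-value below 0.05 in limma, 6 had a positive and 9 a negative log2 fold change, and the median was -0.016. The lowest unadjusted p-values belonged to Fhl5, Camk1d and Calm2. Fhl5, which encodes the CREM coactivator ACT, was at 290, 291 and 306 FPKM in the DM rats and at 328, 319 and 310 FPKM in the ND rats. These groups did not overlap, and neither did those of 13.0% of all genes tested. The log2 fold change of Fhl5 was -0.11, with an adjusted p-value of 0.712 in limma. Camk1d was also below every ND rat in every DM rat, with a log2 fold change of -0.29 (limma adjusted p = 0.794). Calm2 labels a pair of genes in the table, at 319 and 137 FPKM as means of 6 rats, with log2 fold changes of 0.059 and -0.0014.

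For both sperm calcineurin subunits the difference between the groups was smaller than the spread between rats. Ppp3r2, the regulatory subunit, was at 258, 252 and 219 FPKM in the DM rats and at 224, 247 and 214 FPKM in the ND rats. The 2 highest values were those of DM rats, but the third DM rat lay below 2 of the ND rats. The means were 243 ± 20.9 and 228 ± 16.6 FPKM (SD, n = 3 each), and the log2 fold change of 0.088 was the largest of the 8 members (95% interval -0.11 to 0.28, limma adjusted p = 0.888, exact permutation p = 0.3). Without the third DM rat the groups of Ppp3r2 no longer overlapped, and its log2 fold change was 0.16 (limma adjusted p = 0.674). For this fit too, groups separate more easily with fewer rats, and the share over all genes was not taken. Ppp3cc, the catalytic subunit, was at 84.2, 75.8 and 89.4 FPKM in the DM rats and at 87.4, 74.9 and 84.4 FPKM in the ND rats. The second rat of each group was the lowest, and the log2 fold change was 0.016 (95% interval -0.19 to 0.22, limma adjusted p = 0.985). The ratio of Ppp3r2 to Ppp3cc, which encode subunits of the same enzyme, was 2.95 ± 0.449 in the DM and 2.80 ± 0.429 in the ND rats (SD, n = 3 each, exact permutation p = 0.9). On the FPKM scale, which is per length, the regulatory subunit was above its catalytic partner in 6 of 6 rats, by 2.45-fold to 3.33-fold.

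The testis form of the regulatory subunit, Ppp3r2, stood beside its broadly expressed paralog Ppp3r1 at 14.4-fold its level on average, with 12.6-fold to 16.8-fold in single rats. The 250 bases before the starts of both genes are shown because the pair differed so much in level (RefSeq, GRCr8, Ppp3r2 on the minus strand at chr5:68823383-68823632 and Ppp3r1 on the plus strand at chr14:95769596-95769845), with CG dinucleotides in capitals.
Ppp3r2: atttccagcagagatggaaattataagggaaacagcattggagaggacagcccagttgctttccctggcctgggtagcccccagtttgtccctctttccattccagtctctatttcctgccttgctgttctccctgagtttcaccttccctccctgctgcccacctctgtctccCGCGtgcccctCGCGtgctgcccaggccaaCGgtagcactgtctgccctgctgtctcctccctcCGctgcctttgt
Ppp3r1: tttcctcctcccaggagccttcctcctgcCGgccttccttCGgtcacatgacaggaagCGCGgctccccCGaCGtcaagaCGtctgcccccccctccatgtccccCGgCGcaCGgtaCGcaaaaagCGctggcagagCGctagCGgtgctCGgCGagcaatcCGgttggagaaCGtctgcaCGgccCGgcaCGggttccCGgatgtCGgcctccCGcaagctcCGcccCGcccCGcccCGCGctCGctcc
The window of Ppp3r2 holds 6 CG dinucleotides and that of Ppp3r1 holds 30, at the 52.5th and the 94.99th percentile of all windows. Over the 7 members with a window the median count was 5, the same as over all windows. Over 6 paralogs of them (Tssk1b, Ppp3ca, Ppp3cb, Ppp3r1, Ppp1ca and Ppp1cb) it was 27. Of these paralogs, Tssk1b had 4 and the phosphatase subunits had 19 to 30, while Tssk5 had no window. Ppp1cc, which is expressed in many tissues, was unlike the other members with 29 CG dinucleotides, while Tssk6 had 12 and Camk4 had 0. These counts describe the reference sequence, and methylation was not measured.

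Among the other genes of the calcineurin list, Ppp3ca was at 6.98 ± 1.003 and 7.28 ± 0.0758 FPKM, Ppp3cb at 12.2 ± 0.794 and 12.4 ± 1.296 FPKM and Ppp3r1 at 16.1 ± 1.38 and 16.8 ± 0.944 FPKM in DM and ND rats (SD, n = 3 each). Of the 9 genes tested from this list, 0 had an unadjusted p-value below 0.05 in limma. Their log2 fold changes were negative for 8 genes and positive for 1, with a median of -0.060. Over all 20338 genes tested, 11313 were negative and the median was -0.021. The lowest unadjusted p-value was that of Rcan2, which encodes an inhibitor of calcineurin. Rcan2 was at 0.656 ± 0.106 FPKM in the DM and 0.942 ± 0.104 FPKM in the ND rats (SD, n = 3 each), with groups that did not overlap and a log2 fold change of -0.47 (limma adjusted p = 0.758). Groups without overlap were also found for 13.0% of all genes tested. Rcan1, of the same family, had a log2 fold change of -0.17, and the transcription factor gene Nfatc3 of -0.11. Nfatc1, Nfatc2 and Nfatc4 were below the minimum level for testing. Spata33, whose product anchors calcineurin to sperm mitochondria, was at 136 ± 15.0 and 139 ± 11.0 FPKM (SD, n = 3 each).

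Ppp1cc, the highest of the 8 genes, was at 302, 309 and 322 FPKM in the DM rats and at 306, 277 and 322 FPKM in the ND rats. The second ND rat was the lowest, and the third rats of both groups were level at the top. The means were 311 ± 9.89 and 301 ± 22.8 FPKM (SD, n = 3 each), with a log2 fold change of 0.046 (95% interval -0.11 to 0.21, limma adjusted p = 0.929). The gene is spliced into a broadly expressed form and a form of male germ cells, and its total does not separate them. The other catalytic subunits of protein phosphatase 1 were much lower. Ppp1cb was at 20.4, 21.1 and 25.1 FPKM in the DM rats and at 25.8, 24.1 and 25.6 FPKM in the ND rats, which is a difference of -0.19 on the log2 scale (limma adjusted p = 0.729). Ppp1ca was at 11.5 ± 0.492 and 12.6 ± 1.33 FPKM (SD, n = 3 each), or -0.13 on the log2 scale (limma adjusted p = 0.843). Of the 12 genes of the protein phosphatase 1 list, 12 were tested and 0 had an unadjusted p-value below 0.05 in limma, with 6 positive and 6 negative log2 fold changes and a median of -0.0073. Ppp1r8, which encodes a nuclear regulatory subunit, had the third-lowest unadjusted p-value of the list and a log2 fold change of -0.14. Spz1 and Ppp1r36 were chosen after their values were seen, as the 2 genes of this list whose groups did not overlap. Of the 40 genes tested from the 4 pathway lists, 2 were higher and 3 lower in DM rats without overlap. Over all 20338 genes tested, 927 were higher and 1713 lower without overlap, so the share in the lists was near that of all genes. Spz1 was at 368 ± 1.84 and 355 ± 6.99 FPKM, and Ppp1r36 at 112 ± 3.57 and 107 ± 2.56 FPKM in DM and ND rats (SD, n = 3 each), with log2 fold changes of 0.050 and 0.064. Tsacc and Spata33 were likewise named after their values were seen.

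The share of a member within its subunit family does not depend on the scaling between libraries. Ppp3cc made up 82.1%, 80.2% and 81.4% of the summed FPKM of Ppp3ca, Ppp3cb and Ppp3cc in the DM rats and 81.8%, 80.3% and 79.98% in the ND rats. The groups overlapped, and the means differed by 0.568 percentage points (exact permutation test, p = 0.6, n = 3 each). Ppp3r2 made up 93.6%, 94.4% and 93.3% of Ppp3r1 and Ppp3r2 in the DM rats and 92.6%, 93.7% and 93.04% in the ND rats, which also overlapped (exact permutation test, p = 0.3, n = 3 each). Ppp1cc made up 90.3%, 90.5% and 89.9% of the 3 catalytic subunits in the DM rats and 89.0%, 87.9% and 89.6% in the ND rats. Every DM rat was above every ND rat, by 1.40 percentage points between the means (exact permutation test, p = 0.1, the smallest possible with n = 3 each, and 0.3 after Benjamini-Hochberg adjustment over the 3 shares). Ppp1cc itself overlapped between the groups, with a log2 fold change of 0.046, while those of Ppp1cb and Ppp1ca were -0.19 and -0.13. How often the shares of other families separate was not taken. When single rats were left out, the difference was between 0.145 and 1.12 percentage points for Ppp3cc, between 0.304 and 0.925 for Ppp3r2 and between 0.925 and 1.81 for Ppp1cc. The design could not reach a p-value below 0.05 for any of these shares.

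**Figure D3:**
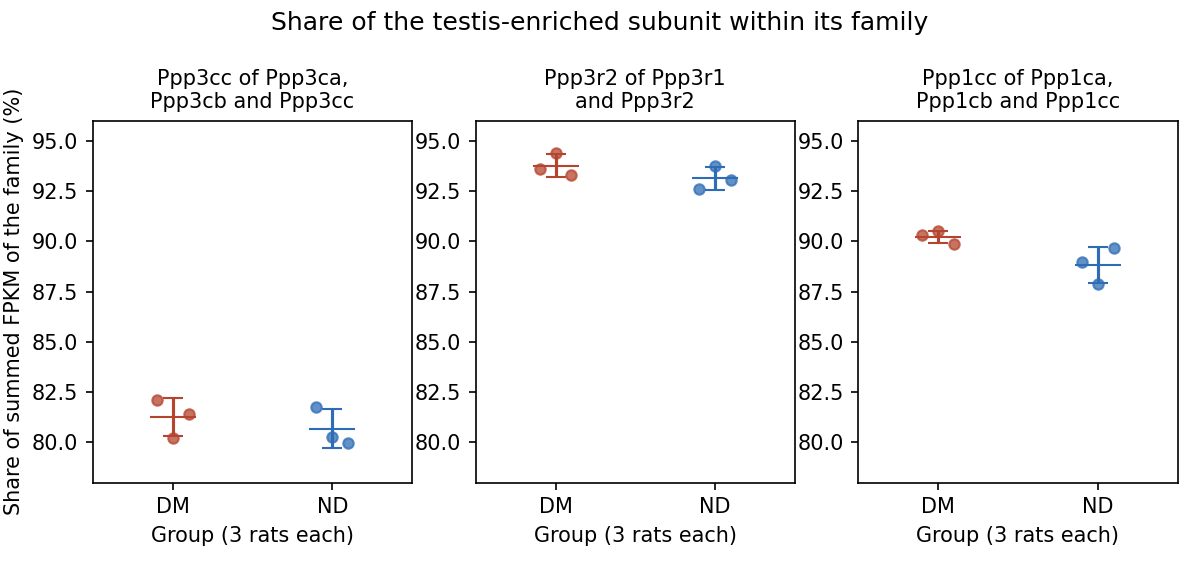
Share of Ppp3cc, Ppp3r2 and Ppp1cc, each in the summed FPKM of its family, in percent, for each rat, with the mean and SD of the group (3 DM and 3 ND rats). The total of Ppp1cc includes its broadly expressed form. The vertical axis is the same in each panel and does not start at 0. Ppp3cc and Ppp3r2 overlap between groups, and the shares of Ppp1cc are between 89.9% and 90.5% in DM rats and between 87.9% and 89.6% in ND rats.

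The tissue labelled as testis expressed most of the listed markers of its germ and somatic cells. The spermatogonium marker Nanos3, the Sertoli marker Amh and the endothelial marker Kdr were below the minimum level for testing. Their means over 6 rats were 0.394, 0.306 and 0.475 FPKM. The endothelial marker Pecam1 matched no symbol. Of 12 spermatid markers, led by Prm1, Oaz3 and Odf1, 12 were tested and 0 had an unadjusted p-value below 0.05 in limma. Their log2 fold changes were between -0.16 and 0.12, and their summed level was 18592 to 19518 FPKM in DM and 17435 to 19713 FPKM in ND rats. The same count was 0 of 10 spermatocyte markers (led by Ldhc, Pgk2 and Sycp3), 0 of 8 Sertoli, 0 of 5 peritubular and 0 of 3 endothelial markers tested. Of 7 spermatogonium markers tested, Uchl1 was higher and Kit lower at an unadjusted p-value below 0.05, with adjusted p-values of 0.485 and 0.635 in limma. Of 5 macrophage markers, Cd68 and Csf1r were lower in DM rats at an unadjusted p-value below 0.05, and their adjusted p-values were 0.629 and 0.336 in limma. Of 7 Leydig markers, 6 were lower at an unadjusted p-value below 0.05 and 1, Cyp17a1, fell at an adjusted p-value of 0.0415 in limma, and the summed level was 33.9 to 66.1 FPKM in DM and 91.8 to 129 FPKM in ND rats. Uchl1, Kit, Cd68, Csf1r and Cyp17a1 were named for these p-values after they were seen, and Nanos3, Amh and Kdr for their low levels. The part of these cells in the members' values was not tested. From histology, the study reports strongly reduced spermatogenesis in all DM testes. FPKM is relative to library size, so a loss shared by most of the RNA would not show in these levels.

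Each member was also set against the spermatid markers of the same rat, as its log2(FPKM + 0.1) less the mean of the 12 markers. That mean was 0.014 lower in the DM rats on the log2 scale (exact permutation test, p = 0.7, n = 3 each). On this relative scale the members differed between the groups by -0.062 for Tssk4 to 0.10 for Ppp3r2, and the groups overlapped for all 8 genes. The exact permutation p-values were between 0.3, for Ppp3r2, and 1, for Tssk6 (n = 3 each).

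The deviations of single rats were then compared across the members. The median deviation of the 8 members from their means over 6 rats was -0.067 in the third DM rat and -0.096 in the third ND rat on the log2 scale, and between 0.024 and 0.057 in the other 4 rats. Over the 12 spermatid markers the same 2 rats were at -0.032 and 0.0050, and over all genes tested at -0.0025 and 0.0039. These medians hide markers that moved in opposite directions. Odf1 and Gapdhs were lowest in the third rat of both groups, like several members, and Tnp1, Odf2 and Akap4 were highest there. These markers were named after their values were seen. Within the ND group the third rat was the lowest for 6 of the 8 members, and within the DM group the third rat was the lowest for 4 of 8. The same shares over all genes were not taken, so these counts are not a trait of the members. Tssk2, Tssk3, Tssk6 and Ppp3r2 were lowest in the third rat of both groups. Ppp1cc and Ppp3cc went the other way, with the second ND rat the lowest of the 6 for both. The labels do not tie samples with the same number together.

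**Figure D4:**
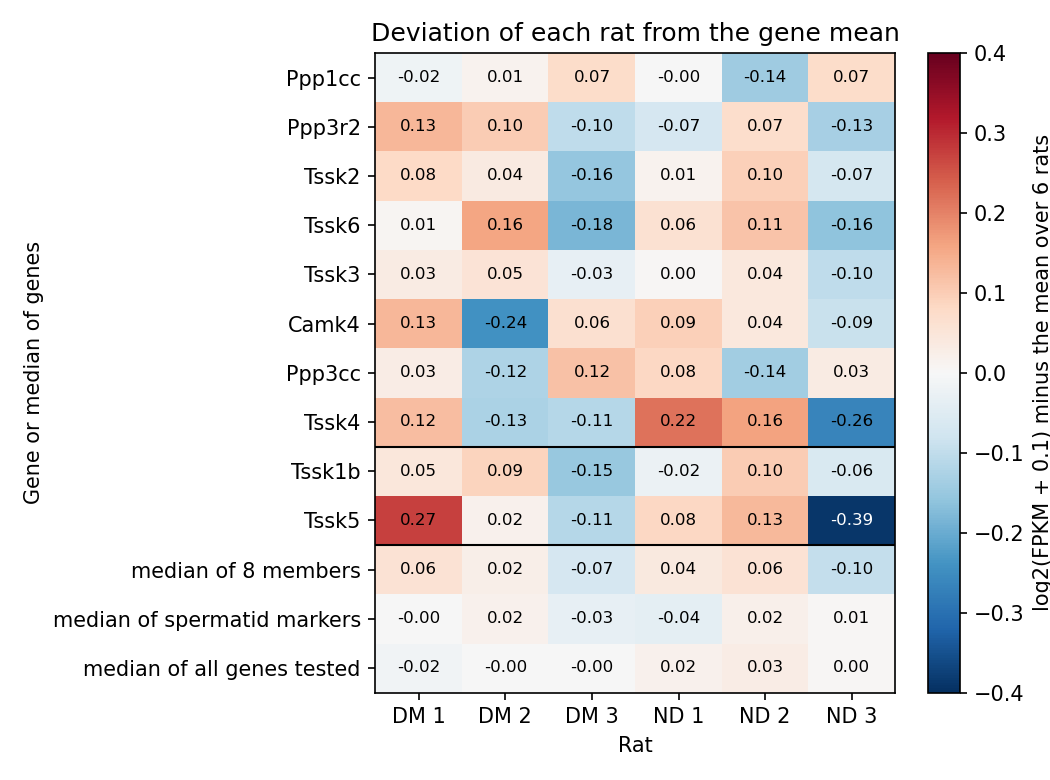
Deviation of each rat from the mean over 6 rats on the log2(FPKM + 0.1) scale, for the 8 members, for Tssk1b and Tssk5, and for medians over the 8 members, the 12 spermatid markers and all genes tested. Red is above and blue below the mean of the gene. The third DM and the third ND rat are below the mean for Tssk2, Tssk3, Tssk4, Tssk6 and Ppp3r2, and the median of the 8 members is lowest in the third ND rat, at -0.096.

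For the 3 members with the lowest unadjusted p-values, the genes with the most similar pattern over the 6 rats were sought among 14987 other genes with a symbol and at least 1 FPKM. Likeness was the root mean square difference of the centred log2 values, a description over 6 rats. For Ppp3r2, whose own spread by that measure was 0.104, the nearest were LOC108348142 and LOC100360117, which carry identical values, at 0.0195, and Rangrf at 0.0202. For Ppp1cc, with a spread of 0.0728, they were RGD1309748 at 0.0119, Sbno1 at 0.0214 and Vps37b at 0.0242. For Tssk3, with a spread of 0.0539, they were Lonp2 at 0.00816, Nme5 at 0.0136 and Spata20 at 0.0152.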

How the data were processed

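The study's methods name FastQC for quality control, BWA for a comparison of the reads with rRNA sequences, STAR for alignment and StringTie for assembly. The authors deposited FPKM per gene for 6 samples, and tool versions and genome build are not given in the sources used here. The labels' protocol describes poly(A) selection with poly-T beads, but it also names a fraction without poly(A) and adipose tissue, and the sample titles list circRNA and lncRNA beside mRNA, so the RNA fraction behind the FPKM is uncertain. Read depth is unknown from FPKM, whose totals were 453304 to 478211 per sample.

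Values were transformed to log2(FPKM + 0.1), which understates the change of low genes. limma 3.58.1 (lmFit, then eBayes with its trend option, in R 4.3.3) compared DM with ND in the 20338 genes averaging 0.5 FPKM or more, and its two-sided p-values were adjusted by Benjamini-Hochberg over all of these. Exact permutation and sign-flip tests were run in Python 3.11.15 with scipy 1.17.1. The fit was tested on simulated data with normal errors whose spread depended on the mean level alone, which is simpler than real genes. There, 86.0% of 100 genes changed by a log2 of 1 had an adjusted p-value below 0.05 in limma. So did 0.0795% of 20138 unchanged genes. How the fit performs on the real spread was not tested.

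The members and lists (4 of pathways and 8 of cell type markers) were chosen with earlier results of these data known. Pecam1 matched no symbol and was not analysed here, and Tssk1 was taken as Tssk1b. Genes named are the members, the related subunits and kinases, Camkk1, Camkk2, Crem, up to 3 genes per pathway list by lowest p-value, up to 3 per marker list by highest level, and for 3 members the 3 genes nearest in pattern, beside those said to be named after their values were seen. The order of levels, the ratios, the TSSK shares, the deviations by rat and the promoter counts were added after the values were seen. Promoter sequences come from RefSeq (GRCr8), which matched 7 of the 8 members by symbol.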

Additional observations from a re-analysis of the deposited data

How the results depend on the processing

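Each choice was changed alone: the pseudocount (1 or 0.01), the filter (none, or at least 1 FPKM), the scaling (TPM or median ratio), the eBayes options (no trend, or robust), the gene set (protein-coding, or symbols summed), the replicate number as a block, and each rat left out. Over these 17 fits the lowest limma adjusted p of any member was 0.674, and 0 of 8 members were called. The deviations of same-numbered rats had correlations of 0.106, 0.0153 and 0.0979. Rats 1 and 3 correlated best with their own number and rats 2 did not. With only 3 rats in each group there are few possible pairings, so this check cannot decide whether same-numbered rats were tied. Each number occurs once in each group, so the block cannot change a log2 fold change and only the p-values can move. For Ppp3r2 the unadjusted limma p was 0.330 without the block and 0.162 with it. The adjusted limma p was 0.888 without it and 0.726 with it, and no member's call changed.

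With median-ratio scaling, which moved the median of all genes from -0.021 to 0.0080, the log2 fold changes of Tssk2 and Tssk6 turned to 0.0020 and 0.018, and the medians of the TSSK, calmodulin kinase and protein phosphatase 1 lists to 0.020, 0.011 and 0.022. The median of the calcineurin list moved from -0.060 to -0.031 with that scaling. Against spermatocyte instead of spermatid markers, Tssk6 turned to -0.011. The pathway lists held 1 gene (Rcan2) at an unadjusted p below 0.05, in place of 0, without the trend or with protein-coding genes alone. The causes were not tested.

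With single rats left out, the log2 fold change ranged from -0.074 to 0.044 for Tssk2, -0.0048 to 0.067 for Tssk3, -0.23 to 0.014 for Tssk4, -0.094 to 0.077 for Tssk6, -0.11 to 0.082 for Camk4, -0.050 to 0.081 for Ppp3cc, 0.043 to 0.16 for Ppp3r2 and -0.014 to 0.095 for Ppp1cc. Relative to the spermatid markers it ranged from -0.066 to 0.062 for Tssk2, 0.0044 to 0.096 for Tssk3, -0.22 to 0.061 for Tssk4, -0.085 to 0.095 for Tssk6, -0.097 to 0.098 for Camk4, -0.064 to 0.11 for Ppp3cc, 0.052 to 0.18 for Ppp3r2 and -0.028 to 0.10 for Ppp1cc. List medians ranged from -0.048 to 0.063 (TSSK), -0.062 to 0.011 (calmodulin kinase), -0.10 to -0.044 (calcineurin) and -0.038 to 0.0042 (protein phosphatase 1). Between 0 and 1 members had groups without overlap (Ppp3r2 without the third DM rat, Tssk4 without the third ND rat). Groups separate more easily with fewer rats, and the share over all genes was not taken for these fits. Between 0 and 1 pathway genes had an unadjusted p below 0.05 (Ppp1cb without the third DM rat, Creb1 without the first ND rat). Read depth, and with it the counting error, is unknown.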
